A study of Mus musculus with 4 samples.

Results

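Interferon-induced genes were followed through the cell classes of the mouse pituitary gland. They were taken as the 9 rows of the count tables whose symbol is Parp14, Ddx60, Oasl2, Herc6, Stat2, Ifih1, Ifit3, Rnf213 or Eif2ak2, of 32285 genes in all. The rule itself reads no measured value, but the genes were chosen with earlier results of these data known. All glands came from wild-type UM-HET3 mice, a stock made by crossing inbred strains so that each animal is genetically distinct. Nuclei were sequenced in 4 libraries, 1 for each labelled group, namely females of 22 months, males of 22 months, females of 5 months and males of 5 months, and each library pooled 3 glands. The submitters name the aging of stem cells in the pituitary as their subject.

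Interferons are secreted proteins that cells release when they sense viral or misplaced nucleic acid. Type I and type III interferons bind surface receptors whose JAK kinases phosphorylate STAT2, which joins IRF9 in a complex that binds the interferon-stimulated response element (ISRE) in front of target genes. The products of these targets sense foreign RNA, block translation or modify proteins, and many are present at a low level in cells with no infection. The pituitary gland holds hormone-producing cells beside stem cells, endothelium, macrophages, fibroblasts and mural cells, and the pituicytes of its posterior lobe.

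The ISRE core was looked for in the 250 bases before the start that RefSeq gives each gene, because it is the sequence that the complex with STAT2 and IRF9 binds. The motif searched was 2 copies of GAAA with any 2 bases between them, on both strands, in the RefSeq promoter table of build GRCm38.p6. RefSeq starts can differ from the GENCODE gene positions given with each gene below: the window ended at 128270497 for Stat2 and at 119390098 for Rnf213. Distances are counted from the RefSeq start. Of the 9 genes, 8 matched an entry of that table, and the motif stood in 3 of the 8, against 2.98% of 32851 promoters (978). The 3 stretches are printed on the + strand, which is the strand of all 3 genes, in lower case with the matches in capitals. A match on the other strand reads as 2 copies of TTTC. Ddx60, at chr8:61928009-61928086 with 2 matches 53 and 19 bases from the RefSeq start:
Ddx60: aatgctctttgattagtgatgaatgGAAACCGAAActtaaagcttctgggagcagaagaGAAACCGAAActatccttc
Stat2, at chr10:128270251-128270310 with 1 match 222 bases from the RefSeq start:
Stat2: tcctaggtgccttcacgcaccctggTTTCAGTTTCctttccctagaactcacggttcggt
Ifit3, at chr19:34583348-34583441 with 2 matches 156 and 122 bases from the RefSeq start:
Ifit3: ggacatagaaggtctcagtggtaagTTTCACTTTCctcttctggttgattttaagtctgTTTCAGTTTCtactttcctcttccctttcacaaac
The letters were not found in the windows of Oasl2, Herc6, Ifih1, Rnf213 and Eif2ak2.

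The libraries held 33328821 to 65773807 counts of unique transcripts (UMIs), and 31343 nuclei remained after filtering, with a median of 3460 to 4745 UMIs per nucleus in the 4 libraries. Sex-chromosome transcripts went against the label in 2 libraries. Nuclei with Xist made up 97.3% of the library labelled 22-month males and 0.212% of that labelled 5-month females, and nuclei with Y-linked transcripts made up 0.203% and 84.3% of the same libraries. Every comparison by labelled age is thus also a comparison of Xist-bearing with Y-bearing libraries, and labelled age and sex chromosomes cannot be told apart in it. If the labels of these 2 libraries were exchanged, the labelled-age comparison would be one of sex and the labelled-sex comparison one of age. No group has a replicate library, and pairs of libraries shared 14 to 43 cell barcodes. Clustering without the 9 genes and without the listed genes of the pathway gave 26 clusters, of which 11 classes could be named from markers with at least 30 nuclei in every library. They are called endothelial-like and so on, since the names rest on transcripts alone.

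Summed over the 9 genes, the level was highest in endothelial-like and macrophage-like nuclei among the 11 classes. Their summed level in UMIs per 1000000 UMIs of the class (CPM) was 1016, 778, 661 and 557 in the endothelial-like nuclei of the libraries labelled 22-month females, 22-month males, 5-month females and 5-month males. The macrophage-like sums were 772, 1027, 651 and 464 CPM in the same order of libraries. Fibroblast- or mural-like nuclei had 504, 548, 524 and 352 CPM and stem-like nuclei 509, 517, 360 and 438 CPM. Averaged over libraries the order ran from endothelial-like (753 ± 197 CPM, SD, n = 4) and macrophage-like (728 ± 236) to fibroblast- or mural-like nuclei (482 ± 88.6), and the first 2 classes differed by less than their spread. The macrophage-like sum lay above the fibroblast- or mural-like one in each of the 4 libraries. Among the hormone-producing classes the sum lay between 126 CPM, in the gonadotrope-like nuclei labelled 22-month females, and 301 CPM, in the somatotrope-like nuclei labelled 5-month females. In each of the 4 libraries the endothelial-like and macrophage-like sums lay above those of all 6 hormone-producing classes.

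**Figure D1:**
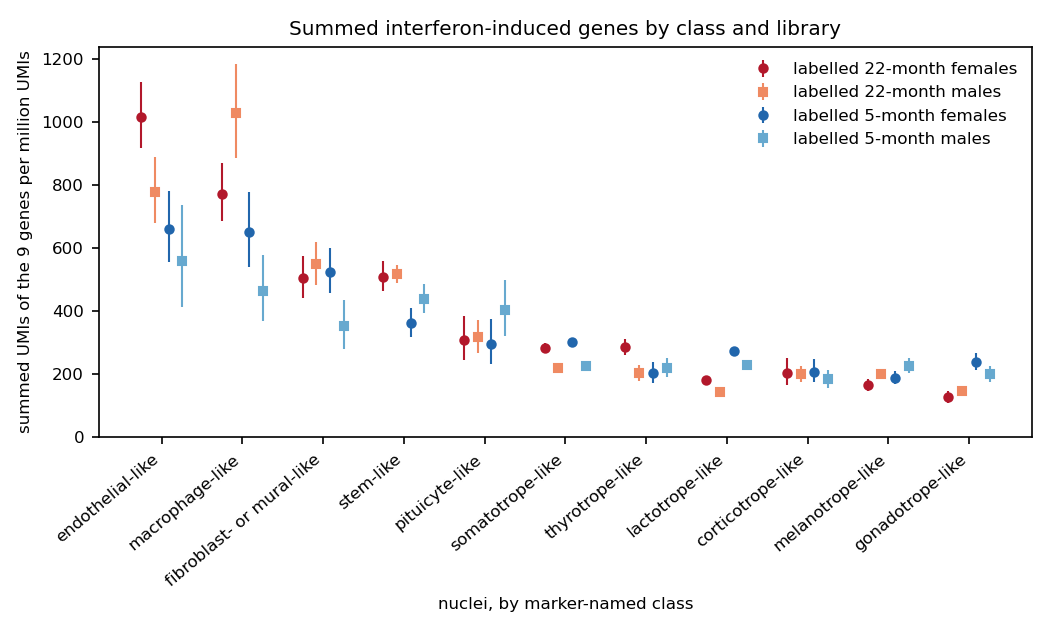
Summed level of the 9 genes in CPM in each class, with 1 point per library and exact 95% Poisson intervals that cover counting error only. The endothelial-like and macrophage-like points lie between 464 and 1027, above every point of the hormone-producing classes.

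Each class was set against all other nuclei of the same library with the library as a block, by the quasi-likelihood test of edgeR, with p-values adjusted over all genes tested by the method of Benjamini and Hochberg. In endothelial-like nuclei all 9 genes were higher, where 13.1% of 18145 genes tested passed higher, and their median log2 fold was 1.57 against -0.38 over all genes tested. In macrophage-like nuclei all 9 were higher as well, beside 11.1% of all genes that passed higher and 16.4% lower (21.4% lower in endothelial-like nuclei), with medians of 1.28 and -0.37. Fibroblast- or mural-like nuclei had 7 higher (13.9% of all genes) and stem-like nuclei 5 higher (17.9%), and neither had a gene lower, where 17.1% and 22.5% of all genes passed lower. Pituicyte-like nuclei had 3 higher (11.1%) and 1 lower (17.7%). These classes hold 46 to 857 nuclei per library, and in the endothelial-like, macrophage-like and pituicyte-like fits the spread was shared fully across genes.

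The hormone-producing classes did not move alike. Gonadotrope-like nuclei had 7 genes lower (15.2% of all genes passed lower) and 1 higher (13.1%), and their median was -1.38 against -0.06 over all genes. Somatotrope-like nuclei had 4 higher (21.4%) and 3 lower (23.4%), thyrotrope-like nuclei 1 higher (6.26%) and 1 lower (9.37%). In corticotrope-like nuclei 4 were lower (13.2%), in melanotrope-like nuclei 2 (21.2%) and in lactotrope-like nuclei 1 (18.4%), with none higher in those 3 classes, where 7.85%, 16.5% and 16.6% of all genes passed higher. Over the 11 classes this made 39 pairs of gene and class higher and 19 lower, of 99. Of these, 28 higher and 7 lower passed with any 1 library left out. Without both libraries whose sex-chromosome transcripts go against their labels, 26 were higher and 7 lower.

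**Figure D2:**
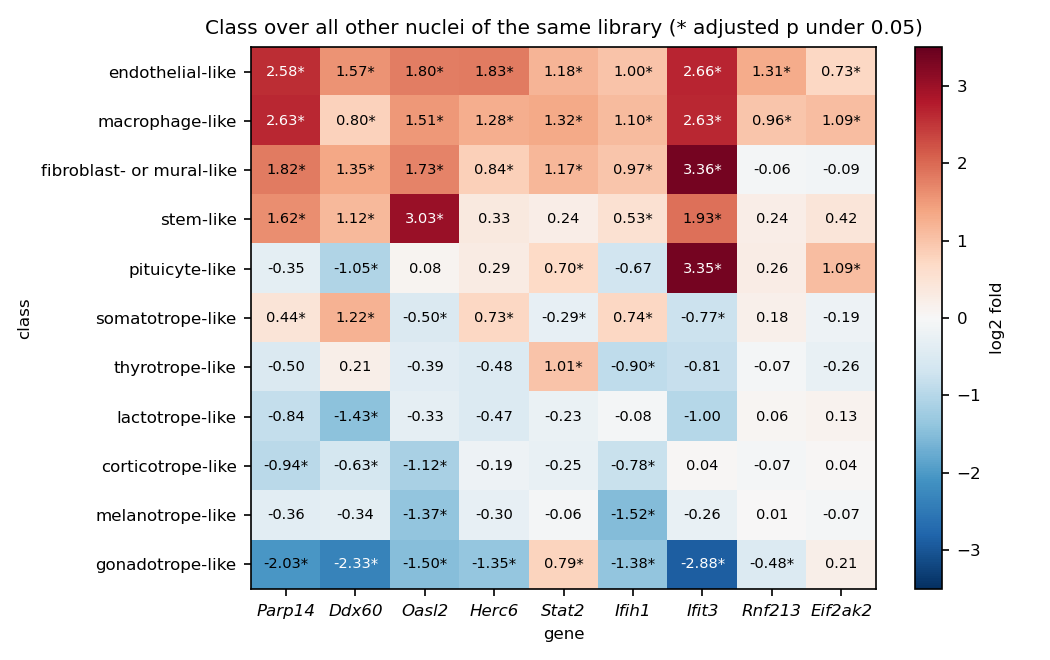
Log2 fold of each gene (columns) in each class (rows) over all other nuclei of the same library, where red is higher in the class and an asterisk marks an adjusted p under 0.05. All 9 genes carry an asterisk in the 2 upper rows, and 7 are lower in the bottom row, where Ifit3 rests on 2 UMIs.

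Stat2 (ENSMUSG00000040033, mm10 chromosome 10, 128270559 to 128292849, + strand) encodes the transcription factor that carries the type I interferon signal. It was the one gene of the 9 that was higher in both glycoprotein hormone classes. Gonadotrope-like nuclei had 45.1, 31.7, 79.8 and 61.4 CPM in the libraries labelled 22-month females, 22-month males, 5-month females and 5-month males, against 26.6, 25.8, 27.0 and 29.2 CPM in all other nuclei. Every class value lay above every value of the other nuclei (log2 fold 0.79 ± 0.19, SE; edgeR adjusted p 0.0165), though the call was lost in at least 1 of the fits that left out a library. Thyrotrope-like nuclei had 65.3, 46.6, 34.4 and 74.1 CPM and a fold of 1.01 ± 0.17 (edgeR adjusted p 0.000785), which passed with any 1 library left out. Stat2 was also higher in macrophage-like nuclei (1.32 ± 0.25), endothelial-like nuclei (1.18 ± 0.26), fibroblast- or mural-like nuclei (1.17 ± 0.21) and pituicyte-like nuclei (0.70 ± 0.26), and lower in somatotrope-like nuclei (-0.29 ± 0.10). The pituicyte-like and somatotrope-like calls did not hold with every library left out in turn.

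Ifih1 (ENSMUSG00000026896, chromosome 2, 62595798 to 62646255, - strand) encodes MDA5, a cytoplasmic sensor of long double-stranded RNA. Macrophage-like nuclei had 61.1, 81.0, 16.3 and 34.3 CPM in the same order of libraries, and endothelial-like nuclei 51.6, 39.1, 43.1 and 33.4 CPM. The lowest of these values rest on few UMIs of the gene. Macrophage-like nuclei labelled 5-month females held 184278 UMIs in all, and endothelial-like nuclei labelled 5-month males 89758. The macrophage-like values of the 2 libraries labelled 22-month lay above those of the 2 labelled 5-month, and the difference between the labelled ages did not pass (log2 fold 1.43 ± 0.61, edgeR adjusted p 0.608). Against all other nuclei Ifih1 was higher by 1.10 ± 0.31 in macrophage-like and by 1.0 ± 0.32 in endothelial-like nuclei. It was also higher in fibroblast- or mural-like (0.97 ± 0.26) and stem-like nuclei (0.53 ± 0.18). None of these calls held with every library left out in turn. In somatotrope-like nuclei Ifih1 was higher by 0.74 ± 0.14 (edgeR adjusted p 0.00678), and that call held with any 1 library left out. Its lowest mean was in melanotrope-like nuclei, with 3.42, 5.41, 8.82 and 10.8 CPM, where it was lower by 1.52 ± 0.28 (log2 fold -1.52, edgeR adjusted p 0.00246). That mean differed from the gonadotrope-like one (7.20 to 9.43 CPM) by less than the melanotrope-like SD of 3.32.

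Eif2ak2 (ENSMUSG00000024079, chromosome 17, 78852564 to 78882573, - strand) encodes PKR, a kinase that stops translation when it binds double-stranded RNA. Pituicyte-like nuclei had 63.1, 62.7, 81.7 and 82.3 CPM and macrophage-like nuclei 66.7, 108, 65.1 and 68.7 CPM. Its log2 fold was 1.09 ± 0.23 in pituicyte-like and 1.09 ± 0.25 in macrophage-like nuclei. Endothelial-like nuclei spread more widely, with 95.1, 49.7, 33.5 and 11.1 CPM (0.73 ± 0.27), a call that did not hold with every library left out in turn. The last of these values came from nuclei with 89758 UMIs in all. In the other 8 classes it did not pass, and its pattern over 44 sums of class and library was the least like that of the other 8 genes (Pearson r 0.368, a description across sums that share libraries).

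Ddx60 (ENSMUSG00000037921, chromosome 8, 61928087 to 62038244, + strand) encodes a helicase linked to antiviral RNA sensing. In endothelial-like nuclei it had 166, 107, 76.7 and 44.6 CPM and in fibroblast- or mural-like nuclei 81.1, 79.1, 117 and 55.1 CPM. Among hormone-producing classes it was highest in somatotrope-like nuclei, with 58.8, 48.2, 57.2 and 40.1 CPM, and lowest in gonadotrope-like nuclei, with 3.92, 9.12, 7.25 and 8.77 CPM. These 2 sets of values did not overlap. Against all other nuclei the log2 fold was 1.22 ± 0.11 in somatotrope-like nuclei (edgeR adjusted p 0.000276) and -2.33 ± 0.26 in gonadotrope-like nuclei (0.000522), and both calls held with any 1 library left out. In lactotrope-like nuclei the fold was -1.43 ± 0.34 (0.0259), a call that did not hold with every library left out in turn.

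Oasl2 (ENSMUSG00000029561, chromosome 5, 114896936 to 114912234, + strand) belongs to the family of oligoadenylate synthetase-like proteins and carries ubiquitin-like domains. Its highest class in each of the 4 libraries was the stem-like one, with 124, 118, 102 and 118 CPM, against 13.8, 9.21, 21.5 and 14.0 CPM in all other nuclei. The class values stood at 9.0, 12.9, 4.73 and 8.44 times those of the other nuclei, and the log2 fold was 3.03 ± 0.20 (edgeR adjusted p 7.62e-08). Endothelial-like nuclei had 101, 74.6, 57.5 and 0 CPM; the 0 of the library labelled 5-month males came from 50 nuclei. Macrophage-like nuclei had 66.7, 70.2, 81.4 and 17.2 CPM (log2 fold 1.51 ± 0.30). Melanotrope-like nuclei, with 6.35 to 8.30 CPM (-1.37 ± 0.15), had the lowest mean, which differed from that of gonadotrope-like nuclei (4.58 to 13.8 CPM) by less than the spread.

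Parp14 (ENSMUSG00000034422, chromosome 16, 35832874 to 35871544, - strand) encodes an enzyme that attaches ADP-ribose to proteins. It had 142, 184, 152 and 155 CPM in macrophage-like nuclei and 160, 142, 144 and 111 CPM in endothelial-like nuclei. Gonadotrope-like nuclei, the lowest class on average, had 1.96, 4.32, 12.3 and 8.77 CPM. Every value of the first 2 classes lay above those of the hormone-producing classes, where the highest was 36.7 CPM. The log2 folds were 2.63 ± 0.21 in macrophage-like, 2.58 ± 0.22 in endothelial-like, 1.82 ± 0.20 in fibroblast- or mural-like and 1.62 ± 0.23 in stem-like nuclei, all with any 1 library left out, and -2.03 ± 0.26 in gonadotrope-like nuclei. Parp14 was also the gene whose pattern was most like that of the other 8 together (Pearson r 0.879 over 44 sums).

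Herc6 (ENSMUSG00000029798, chromosome 6, 57581000 to 57664632, + strand) encodes the main ligase for the ubiquitin-like protein ISG15 in mice. Endothelial-like nuclei were its highest class in each of the 4 libraries, with 234, 156, 134 and 134 CPM (log2 fold 1.83 ± 0.20, edgeR adjusted p 4.09e-19). Macrophage-like nuclei had 178, 130, 119 and 57.2 CPM. Somatotrope-like nuclei, with 73.9, 44.8, 59.2 and 45.5 CPM, stood above gonadotrope-like nuclei, with 6.54, 20.6, 27.6 and 23.4 CPM, in each library. Against all other nuclei the fold was 0.73 ± 0.10 in somatotrope-like and -1.35 ± 0.28 in gonadotrope-like nuclei. Of its 50-base stretches 12.5% occur in other genes, and 12.0% in Gm45193, which overlaps Herc6 on the same strand.

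Ifit3 (ENSMUSG00000074896, chromosome 19, 34583531 to 34588731, + strand) encodes a protein that works in a complex with other IFIT proteins on viral RNA. It shares 51.2% of its 50-base stretches with Ifit3b, so its counts are uncertain. It had 27.6, 4.18, 25.8 and 38.7 CPM in pituicyte-like nuclei and 13.2, 37.5, 9.98 and 12.7 CPM in fibroblast- or mural-like nuclei. Its log2 folds were 3.35 ± 0.55 and 3.36 ± 0.53 in these classes, both with any 1 library left out. Both folds rest on few UMIs of Ifit3, since these classes held 206510 to 480277 UMIs in all per library. Gonadotrope-like nuclei held 2 UMIs over all libraries, 0.156 times the level of other nuclei with a counting interval of 0.0188 to 0.569.

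Rnf213 (ENSMUSG00000070327, chromosome 11, 119393100 to 119487418, + strand) encodes a large ubiquitin ligase, and its human counterpart is the susceptibility gene of moyamoya disease, a disorder of brain arteries. Endothelial-like nuclei had 117, 149, 71.9 and 134 CPM and macrophage-like nuclei 114, 173, 59.7 and 40.1 CPM. All other classes lay between 8.47 and 77.5 CPM. The log2 fold was 1.31 ± 0.21 in endothelial-like nuclei (edgeR adjusted p 8.85e-09) and 0.96 ± 0.23 in macrophage-like nuclei, both with any 1 library left out. An antisense gene overlaps Rnf213, and the sources used here do not say whether strand was counted.

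**Figure D3:**
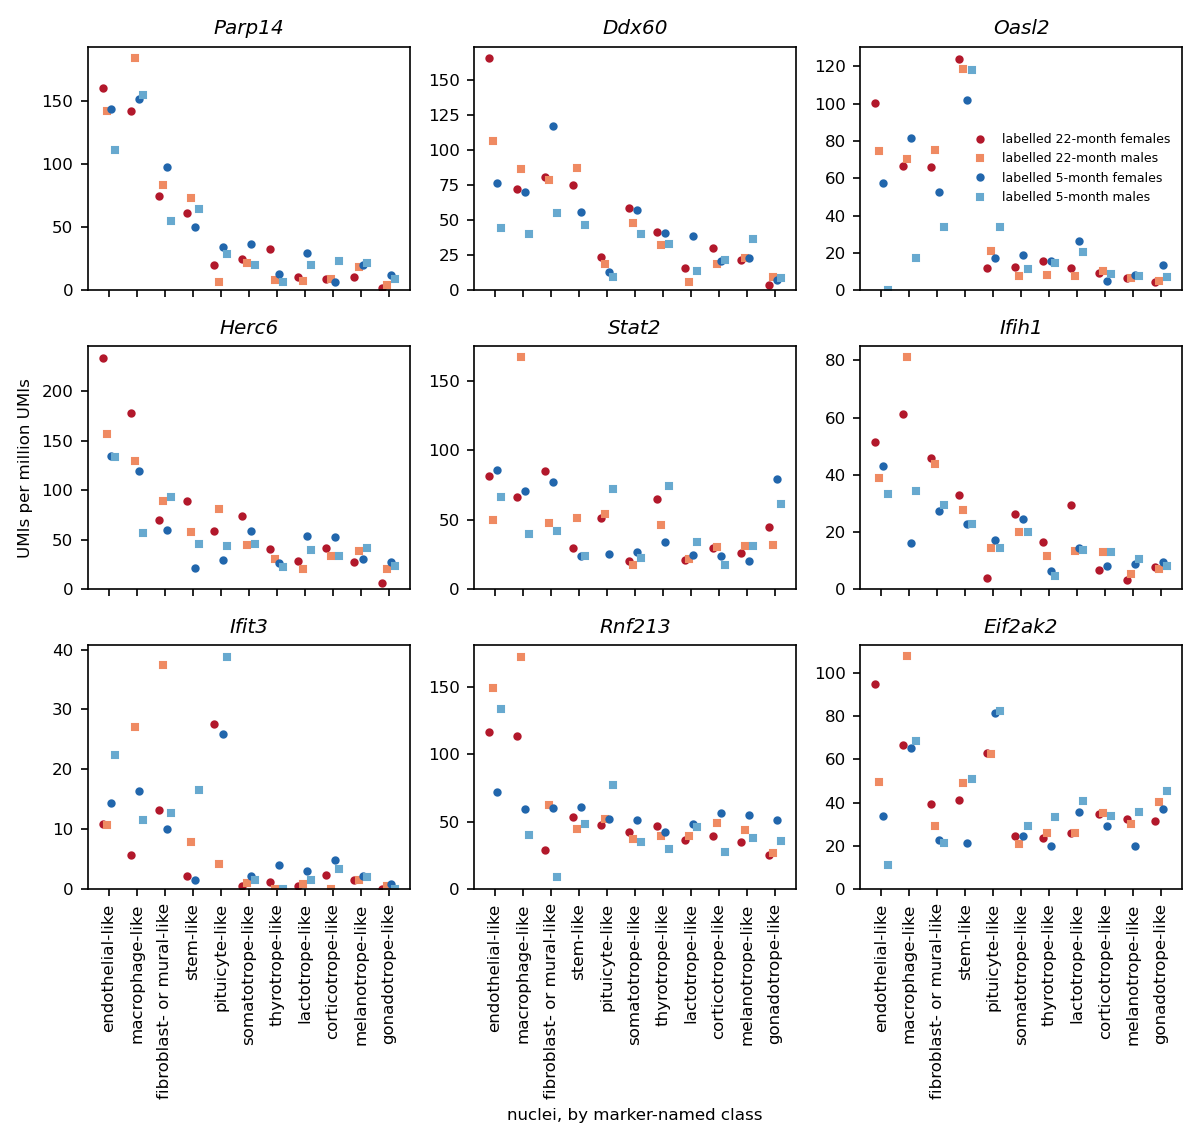
CPM of each gene (panels, each with its own linear axis) in each class, with 1 point per library. Oasl2 peaks in stem-like nuclei at 102 to 124, Herc6 in endothelial-like nuclei at 134 to 234, and Stat2 in gonadotrope-like nuclei stands at 31.7 to 79.8.

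Markers of other cells were read in the 2 classes with the highest sums. The 8 macrophage markers summed to 92.4, 63.9, 62.3 and 44.6 CPM in endothelial-like nuclei, with 1 marker at 0 in every library, and the 9 endothelial markers to 52.8, 75.6, 27.1 and 17.2 CPM in macrophage-like nuclei, again with 1 at 0. The 5 somatotrope markers, which include growth hormone, summed to 18870, 31580, 45009 and 110029 CPM in endothelial-like nuclei, so that the library labelled 5-month males had the most somatotrope transcripts there and the lowest sum of interferon-induced genes. The 5 lactotrope markers, which include prolactin, summed to 32206, 77197, 7256 and 14650.5 CPM in endothelial-like nuclei, higher in the libraries labelled 22-month. The part of these transcripts in the differences between libraries was not tested.

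The share of nuclei with several of the genes is a description with no test. UMIs of at least 3 of the 9 genes stood in 22.0%, 23.7%, 11.1% and 8.0% of the endothelial-like nuclei of the libraries labelled 22-month females, 22-month males, 5-month females and 5-month males. Macrophage-like nuclei had shares of 29.3%, 18.6%, 25% and 8.20%, and over all nuclei 9.41%, 5.00%, 8.41% and 4.53%. Thyrotrope-like nuclei labelled 22-month females reached 20.2% at a median depth of 6515 UMIs, close to the endothelial-like share of that library before thinning. Gonadotrope-like nuclei had the lowest mean sum (177 ± 51.4 CPM, SD, n = 4), which differed from the melanotrope-like one (194 ± 25.5) by less than its spread. The gonadotrope-like shares were 8.24%, 5.02%, 9.30% and 3.97%, at median depths of 4191.5 to 8087 UMIs against 1496.5 to 2328 in endothelial-like nuclei. With each nucleus thinned to 1500 UMIs, the endothelial-like shares were 20.2% (24 of 119 nuclei, 95% Clopper-Pearson interval 13.4 to 28.5), 10.2% (9 of 88, 4.78 to 18.5), 5.63% (4 of 71, 1.56 to 13.8) and 4.00% (1 of 25, 0.101 to 20.4). The gonadotrope-like shares were then 0 in 3 libraries and 0.334% in that labelled 5-month males (1 of 299, 0.00847 to 1.85). The thyrotrope-like share labelled 22-month females was then 1.35% (3 of 223, 0.278 to 3.88). Thinned macrophage-like shares were 12.0%, 14.7%, 2.50% and 2.44%, and those over all nuclei 1.05%, 0.881%, 0.839% and 0.577%. Thinning left out 22, 26, 37 and 25 endothelial-like nuclei. No class is known to lack these genes, and the intervals cover counting error only.

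Genes outside the family were ranked by the Pearson correlation of their log2 CPM with that of the summed 9 genes over the 44 sums of class and library, among 8262 genes with a mean of at least 20 CPM. The 10 most alike were Clec2d (r 0.895), Lgals9 (0.887), Trim12c (0.884), Dnase1l1 (0.872), Creb5 (0.871), Wasf2 (0.868), Gm4951 (0.867), Lrrk1 (0.866), Rcsd1 (0.862) and Tmsb4x (0.861). The sums of one library share its depth and its mice, so these values are a description.

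The other genes of the pathway were read from a list of 95 measured genes, ordered by role. Ligands were almost absent from the 11 classes: of 11 interferon genes, 9 had 0 UMIs there, Ifng had 1 and Ifnk had 218. Lymphocyte-like and unnamed nuclei are not in these counts. Ifnk, a type I interferon known from human keratinocytes, had 18.0, 26.9, 27.4 and 22.8 CPM in stem-like nuclei and was higher there than in other nuclei (log2 fold 4.90 ± 0.31, edgeR adjusted p 5.82e-08). Ifnlr1, the receptor chain specific to type III interferons, had 45.6, 39.8, 54.8 and 63.5 CPM in stem-like nuclei and was also higher (3.12 ± 0.18, 3.41e-08). Of 9 receptors and kinases, 8 were higher in macrophage-like and 6 in endothelial-like nuclei, and none was lower in either. Ifnar2, a chain of the type I receptor, stood at 3.58 ± 0.19 in macrophage-like and 2.54 ± 0.21 in endothelial-like nuclei. Of 8 transcription factors, 7 were higher in macrophage-like nuclei and 6 in endothelial-like nuclei, with Irf9 at 1.83 ± 0.36 and 2.15 ± 0.35.

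Over all roles, 58 of 83 tested listed genes were higher in macrophage-like nuclei and 0 lower, 50 of 80 higher and 1 lower in endothelial-like nuclei, 35 of 80 higher and 1 lower in fibroblast- or mural-like nuclei, and 33 of 81 higher and 4 lower in stem-like nuclei. Effectors made up most of them: 35 of 47 tested were higher in macrophage-like and 33 of 45 in endothelial-like nuclei, such as Ifi44 (5.24 ± 0.63 and 5.84 ± 0.56) and Xaf1 (2.28 ± 0.36 and 2.6 ± 0.35). Usp18, which removes ISG15 and dampens the type I receptor, was higher by 3.03 ± 0.38 in endothelial-like nuclei. Lactotrope-like nuclei had 3 listed genes higher and 42 lower of 82, gonadotrope-like nuclei 10 and 28 of 79, and somatotrope-like nuclei 19 and 23 of 79. Among those higher in somatotrope-like nuclei were Zbp1, a sensor of Z-form nucleic acid (2.04 ± 0.19), and Gbp4, a guanylate-binding protein (1.86 ± 0.18). With any 1 library left out, 44 of the 58, 37 of the 50, 23 of the 35 and 24 of the 33 higher calls held in the first 4 of these classes. Of the lower calls 21 of 42 held in lactotrope-like, 11 of 28 in gonadotrope-like and 13 of 23 in somatotrope-like nuclei, and of the higher calls there 0 of 3, 8 of 10 and 12 of 19. The shares of all genes given above for each class are the background of these counts.

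With labelled age, 4 of the 9 genes were lower in lactotrope-like nuclei labelled 22-month, and none was higher. Parp14 had 10.5 and 7.16 CPM in the libraries labelled 22-month females and males, against 29.5 and 20.3 CPM in those labelled 5-month females and males. Ddx60 had 15.8 and 6.0 CPM against 38.6 and 14.0 CPM, Oasl2 11.6 and 7.6 against 26.6 and 20.7 CPM, and Herc6 29.1 and 20.7 against 53.8 and 39.4 CPM. The labelled ages did not overlap for Parp14, Oasl2 and Herc6, while Ddx60 in the library labelled 22-month females lay above that labelled 5-month males. How many of all genes tested show no overlap was not counted, so this is a description only. The fit over all 4 libraries, with labelled sex as a term, gave log2 folds of -1.30 ± 0.18 for Parp14 (edgeR adjusted p 0.00217), -1.07 ± 0.17 for Ddx60 (0.00454), -1.12 ± 0.18 for Oasl2 (0.00477) and -0.71 ± 0.13 for Herc6 (0.00678). In the same class 10.6% of 16516 genes tested passed lower and 11.8% higher. The median over the 9 genes was -0.71 and that over all genes -0.02.

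The fit has 1 residual degree of freedom and counts pools of genetically heterogeneous mice, so its p-values do not measure how well a difference repeats. None of the 4 calls held with each library left out in turn. Without the library labelled 5-month females the adjusted p was 0.170 for Parp14, 0.904 for Ddx60, 0.211 for Oasl2 and 0.363 for Herc6. Without that labelled 22-month males it was 0.0508, 0.484, 0.0769 and 0.202. Between the 2 libraries whose sex-chromosome transcripts match their labels, 22-month females over 5-month males, the ratio was 0.518 for Parp14 (95% counting interval 0.416 to 0.644), 0.564 for Oasl2 (0.456 to 0.697), 0.739 for Herc6 (0.640 to 0.855) and 1.13 for Ddx60 (0.900 to 1.43), with no test.

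**Figure D4:**
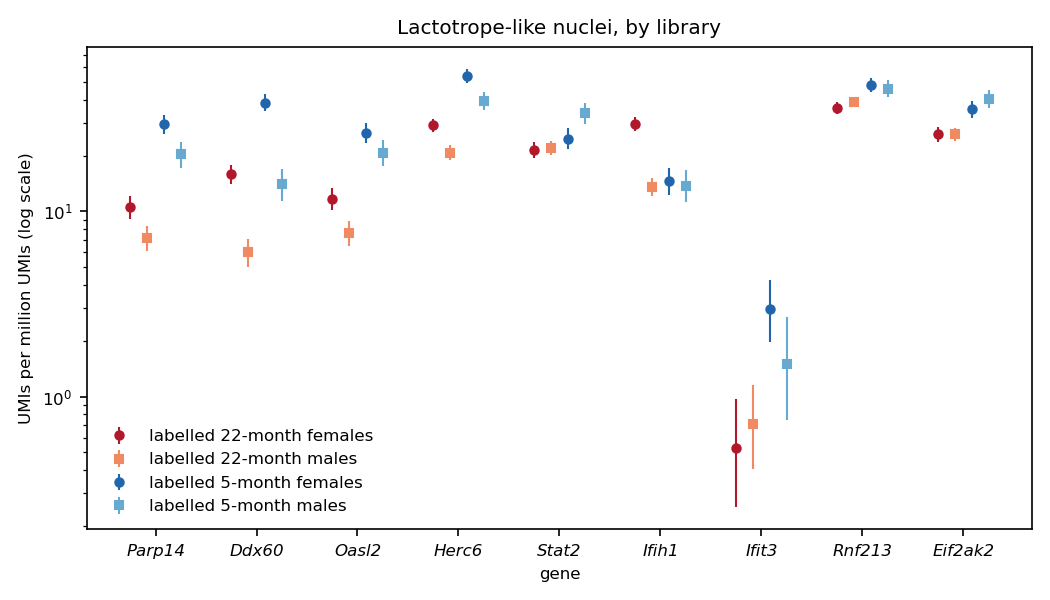
CPM of each gene in lactotrope-like nuclei on a log axis, with 1 point per library and exact 95% Poisson intervals. Parp14, Oasl2 and Herc6 are lower in both libraries labelled 22-month than in both labelled 5-month, and Ifih1 is highest in the library labelled 22-month females at 29.6.

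The remaining 5 genes did not pass in lactotrope-like nuclei. Ifih1 ran in the other direction through 1 library, with 29.6 and 13.5 CPM in those labelled 22-month females and males against 14.6 and 13.7 CPM in those labelled 5-month (log2 fold 0.72 ± 0.25, edgeR adjusted p 0.0780). Ifit3 had 0.527 and 0.711 CPM against 2.95 and 1.5 CPM (-1.60 ± 0.55, 0.0729). Eif2ak2 stood at -0.35 ± 0.13, Stat2 at -0.22 ± 0.16 and Rnf213 at -0.14 ± 0.13. The lactotrope-like nuclei of the labelled ages fell into different clusters. Clusters of 1231 to 3036 nuclei, 4 in all, came nearly all from the libraries labelled 22-month, and the sum of the 9 genes in them was 126 to 192 CPM. One cluster of 4660 nuclei came nearly all from those labelled 5-month, with a sum of 255 CPM. Median depth was 5023 and 4407 UMIs per nucleus against 3409 and 3188. Markers of other cells moved with labelled age in these nuclei as well. The 5 somatotrope markers summed to 10160 and 18515 CPM against 29258 and 41102 CPM. The 10 fibroblast or mural markers summed to 297 and 222 CPM against 83.6 and 91.9 CPM, the 7 pituicyte markers to 265 and 142 against 19.1 and 8.84 CPM, and the 8 lymphocyte markers to 2.32 and 3.91 against 6.75 and 11.8 CPM. The 9 endothelial markers summed to 19.6 and 12.0 against 17.2 and 12.5 CPM, and the 8 macrophage markers to 16.2 and 16.6 against 23.7 and 18.6 CPM. None of these markers was at 0 in all libraries, and their part in the result was not tested.

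In the other classes 1 gene was higher and 1 lower with labelled age. In stem-like nuclei Herc6 had 89.1 and 58.2 CPM under the labels 22-month females and 22-month males, against 21.3 and 45.7 CPM in those labelled 5-month females and males. The log2 fold was 0.98 ± 0.27 (edgeR adjusted p 0.00892), where 3.16% of the genes tested passed higher. The adjusted p was 0.598 without the library labelled 5-month females. The 7 pituicyte markers summed to 318 and 300 CPM against 257 and 164 CPM in these nuclei, at median depths of 2939 and 2696 against 2755 and 2147 UMIs, and their part in the result was not tested. Stat2 had 45.1 and 31.7 CPM in the gonadotrope-like nuclei labelled 22-month, against 79.8 and 61.4 CPM in those labelled 5-month (log2 fold -0.76 ± 0.21, edgeR adjusted p 0.0453; 3.45% of genes passed lower). Its adjusted p was 0.357 without the library labelled 22-month males. The labelled ages fell into different clusters here too: a cluster of 464 nuclei, nearly all labelled 22-month, had 37.2 CPM of Stat2, and one of 565 nuclei, nearly all labelled 5-month, had 70.7 CPM. The 10 fibroblast or mural markers in gonadotrope-like nuclei summed to 45.8 and 70.6 CPM against 29.7 and 21.9 CPM and the 11 stem markers to 204 and 185 against 357 and 385 CPM. The 7 pituicyte markers summed to 95.5 and 83.5 CPM against 12.3 and 13.9 CPM, and the part of these markers was not tested. Over the 11 classes, 84 pairs of gene and class were tested by labelled age, and those not named here did not pass.

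The shares of all genes that passed by labelled age in the remaining classes and directions were small. In gonadotrope-like nuclei 6.13% passed higher, in stem-like nuclei 2.90% passed lower, and in somatotrope-like nuclei 2.49% passed higher and 0.951% lower. Thyrotrope-like nuclei had 1.04% higher and 0.662% lower, pituicyte-like nuclei 0.989% and 1.03%, corticotrope-like nuclei 0.989% and 0.552%, and melanotrope-like nuclei 0.934% and 0.527%. Fibroblast- or mural-like nuclei had 0.451% higher and 0.287% lower, endothelial-like nuclei 0.123% lower, and macrophage-like nuclei 0.0238% higher and 0 lower.

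In endothelial-like nuclei, where the genes were highest, 7 of 8 tested genes had a positive difference with labelled age and none passed. Ddx60 had 166 and 107 CPM in the libraries labelled 22-month against 76.7 and 44.6 CPM in those labelled 5-month (log2 fold 1.12 ± 0.38, edgeR adjusted p 0.430), and Eif2ak2 95.1 and 49.7 against 33.5 and 11.1 CPM (1.58 ± 0.52, 0.420). The endothelial-like nuclei labelled 5-month males held 89758 UMIs in all, so their values of single genes rest on few UMIs. The median over the 8 genes was 0.49, against -0.00 over all genes, and 0.205% of genes passed higher in this class of 50 to 141 nuclei per library. Macrophage-like nuclei had a median of 0.57 over 8 genes with none passed. In lactotrope-like and gonadotrope-like nuclei the medians were negative (-0.71 and -0.69). Whether labelled age acts differently between classes was not tested.

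Among the listed genes of the pathway, 11 of 64 tested were lower and 2 higher with labelled age in lactotrope-like nuclei, where 10.6% of all genes passed lower and 11.8% higher. The sensor of double-stranded RNA Tlr3 had 4.53 and 4.62 CPM in the libraries labelled 22-month females and males, against 15.3 and 12.5 CPM in those labelled 5-month (log2 fold -1.40 ± 0.24, edgeR adjusted p 0.00620). The receptor gene Ifnlr1 had 4.00 and 5.47 against 11.6 and 13.6 CPM (-1.23 ± 0.25). Of the effectors, 9 of 34 were lower: Samd9l, at 20.2 and 12.9 against 51.0 and 30.05 CPM (-1.08 ± 0.14), Ifi35, at 28.7 and 31.9 against 62.3 and 59.1 CPM (-0.81 ± 0.13), the antiviral enzyme Rsad2 (-1.70 ± 0.37), Cmpk2, Ifit1, Gbp2, Gbp3, Irgm2 and Epsti1. The 2 that were higher are listed as negative regulators. Nlrc5, also known as an activator of MHC class I genes, had 12.2 and 13.4 CPM against 3.69 and 3.81 CPM (1.96 ± 0.25), and Ptpn2, a phosphatase that acts on JAK and STAT proteins, stood at 0.47 ± 0.12.

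In gonadotrope-like nuclei 2 of 40 listed genes were higher and 0 lower with labelled age, where 6.13% of all genes passed higher and 3.45% lower, so the higher count lies near the background. Iigp1, an interferon-induced GTPase that acts on the vacuoles of parasites, had 67 and 62 UMIs in the libraries labelled 22-month females and males, against 0 and 1 UMIs in those labelled 5-month (edgeR adjusted p 0.000110). Pias1, an inhibitor of STAT signalling, had 253 and 249 CPM against 171 and 169 CPM (log2 fold 0.68 ± 0.17, 0.0291). In fibroblast- or mural-like nuclei Isg15, which encodes the ubiquitin-like protein of this response, had 1 and 2 UMIs against 13 and 16 UMIs and was the single listed gene to pass, lower (0.0146). Of these calls by labelled age, that of Nlrc5 alone held with each library left out in turn (edgeR adjusted p at most 0.0458).

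With labelled sex, Ddx60 was higher in the lactotrope-like nuclei of the libraries labelled females. It had 15.8 CPM in the library labelled 22-month females and 6.0 CPM in that labelled 22-month males, a ratio of 2.63 (95% counting interval 2.14 to 3.25). It had 38.6 CPM in the library labelled 5-month females and 14.0 CPM in that labelled 5-month males, a ratio of 2.76 (2.21 to 3.47). The log2 fold was 1.44 ± 0.17 (edgeR adjusted p 0.0171), in a class where 0.612% of genes passed higher. At 22 months the labelled sexes fell largely into different clusters. Ddx60 had 19.4 CPM in a cluster with 96.5% of its nuclei from the library labelled 22-month females, against 6.65 and 5.81 CPM in 2 clusters with 93.3% and 91.7% from that labelled 22-month males. In a cluster with 69.0% from the library labelled 22-month females and 31.0% from that labelled 22-month males it had 3.70 CPM. It was the only one of 84 pairs of gene and class to pass, and it did not pass with any 1 library left out (adjusted p at least 0.927), in fits that have no term for labelled age. The 9 endothelial markers summed to 19.6 and 17.2 CPM in the 2 libraries labelled females against 12.0 and 12.5 CPM in those labelled males. In the same order the 7 pituicyte markers summed to 265 and 19.1 against 142 and 8.84 CPM, the 5 erythroid markers to 171 and 146 against 96.3 and 75.2 CPM, and the 5 somatotrope markers to 10160 and 29258 against 18515 and 41102 CPM. The part of these markers was not tested. Parp14, Oasl2, Herc6 and Ifih1 had positive folds of 0.49 to 0.69 in the same nuclei with an unadjusted p under 0.05 and did not pass.

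In somatotrope-like nuclei 8 of the 9 genes had a positive difference between the libraries labelled females and those labelled males, and none passed. The sum of the 9 genes was 284 CPM in the library labelled 22-month females and 218 CPM in that labelled 22-month males, a ratio of 1.30 (95% counting interval 1.22 to 1.39). It was 301 CPM in the library labelled 5-month females and 226 CPM in that labelled 5-month males, a ratio of 1.33 (1.27 to 1.40). Herc6 had the smallest p among them, with 73.9 against 44.8 CPM and 59.2 against 45.5 CPM (log2 fold 0.51 ± 0.14, unadjusted p 0.00813, edgeR adjusted p 0.292). The median over the 9 genes was 0.34 and that over all genes -0.00, and 18 of 15246 genes (0.118%) passed higher. In these nuclei the 5 lactotrope markers summed to 18220 CPM (22-month) and 3912 CPM (5-month) under the label females, against 50043 and 6910 CPM in those labelled males, and the 5 erythroid markers to 156 and 129 against 105 and 66.6 CPM. The part of these markers was not tested. The 2 libraries labelled 5-month filled the somatotrope-like clusters unequally, and the sum of the 9 genes differed between clusters. A cluster of 2319 nuclei, with 63.2% from the library labelled 5-month males and 29.5% from that labelled 5-month females, had 219 CPM. Clusters of 1380 and 2243 nuclei, with 44.5% and 49.6% from the library labelled 5-month males, had 249 and 297 CPM. The part of the clusters was not tested. No listed gene of the pathway passed by labelled sex in any of the 11 classes. By labelled sex few of all genes passed either. In lactotrope-like nuclei 0.0666% passed lower, in somatotrope-like nuclei 0.0197%, and in gonadotrope-like nuclei 0.889% passed higher and 0.386% lower. Pituicyte-like nuclei had 0.767% higher and 1.31% lower, stem-like nuclei 0.692% and 0.544%, melanotrope-like nuclei 0.679% and 0.168%, and corticotrope-like nuclei 0.396% and 0.115%. Fibroblast- or mural-like nuclei had 0.0957% and 0.0684%, endothelial-like nuclei 0.0205% and 0.0614%, thyrotrope-like nuclei 0.0192% and 0.0096%, and macrophage-like nuclei 0 in both directions.

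**Figure D5:**
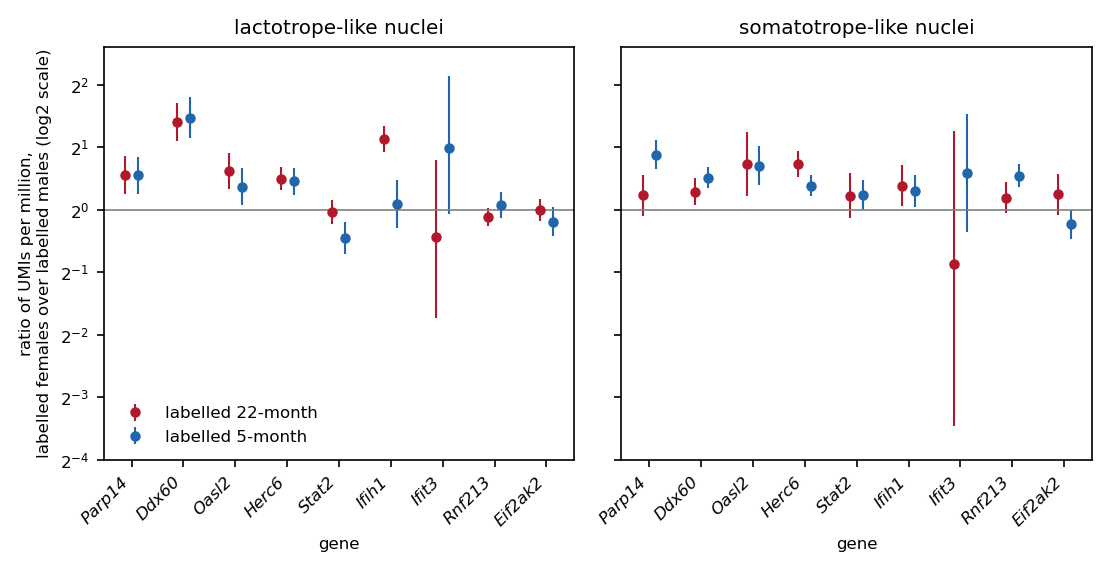
Ratio of CPM in the library labelled females over that labelled males for each gene at each labelled age, on a log2 axis with 95% counting intervals, in lactotrope-like (left) and somatotrope-like (right) nuclei. Ddx60 in lactotrope-like nuclei stands at 2.63 and 2.76, and the grey line marks a ratio of 1.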

How the data were processed

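Single-nucleus RNA sequencing had been done on 4 libraries of frozen pituitary glands. The deposited files hold UMI counts per gene and barcode, made by the authors with Cell Ranger 7.0.1 per the file headers, on mm10 per the submitters' processing notes. Nuclei with under 500 genes or over 5% mitochondrial UMIs were left out, and those with a Scrublet doublet score over 0.13463, the median of the automatic thresholds of the 4 libraries, removed 10.5% to 14.2%. Clustering in scanpy 1.11.5 (Python 3.11.15, scipy 1.17.1) used 3000 variable genes, 30 principal components, 15 neighbours and Leiden resolution 1, without the 9 genes and the listed genes. A cluster took the name of a cell type with at least 3 markers raised by at least 1 on the log2 scale over the median cluster and a lead of at least 1 over the next type; 2228 nuclei stayed unnamed. The naming rule and the doublet threshold were set once the clusters were known.

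Counts were summed per class and library and fitted with edgeR 4.0.16 in R 4.3.3 (TMM, filterByExpr, quasi-likelihood test, Benjamini-Hochberg over all genes kept), with a call at an adjusted p under 0.05. DESeq2 1.42.0 was an alternative, and some of the edgeR fits were tested on simulated data. Of 100 simulated 2-fold changes, between 29 (labelled age, stem-like) and 70 (labelled sex, somatotrope-like) were recovered. Of 100 simulated 4-fold changes, between 58 (class, endothelial-like) and 100 (labelled age, lactotrope-like) were recovered. A gene that did not pass can thus still differ. Labelled age was fitted with labelled sex as a term and the reverse, over 4 libraries with 1 residual degree of freedom, and fits without 1 library had no such term. Levels are UMIs per 1000000 UMIs of the class, with exact Poisson intervals that cover counting error only. Ratios between libraries carry exact counting intervals. Named are all 9 genes, listed genes that passed in a fit described, and the 10 genes most alike. The genes and lists were chosen with earlier results of these data known. Of 99 listed genes outside the 9, 95 were in the files. Each library is a pool, and no labelled group has a second one. The p-values by labelled age or sex thus do not measure the spread between pools of a group. Those between classes rest on 4 pools, with the spread shared fully across genes in the endothelial-like, macrophage-like and pituicyte-like fits.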

Additional observations from a re-analysis of the deposited data

Results flagged for a closer look

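In 5 of 198 comparisons, 2 ratios of the same kind pointed in opposite directions with counting intervals on opposite sides of 1, and the differences between them were not tested. Herc6 in stem-like nuclei stood at 1.53 (95% counting interval 1.16 to 2.01) in females over males labelled 22-month and at 0.466 (0.232 to 0.885) in those labelled 5-month. Stat2 in thyrotrope-like nuclei stood at 1.90 (1.23 to 3.03) in 22-month over 5-month among libraries labelled females and at 0.629 (0.434 to 0.908) among those labelled males. The same 4 values of Stat2 gave ratios of females over males of 1.40 (1.01 to 1.96) at 22 months and 0.464 (0.283 to 0.742) at 5 months. Rnf213 in fibroblast- or mural-like nuclei stood at 0.476 (0.222 to 0.972) in 22-month over 5-month among libraries labelled females and at 7.37 (1.87 to 63.7) among those labelled males. Its ratios of females over males were 0.456 (0.218 to 0.901) at 22 months and 7.07 (1.76 to 61.7) at 5 months, and the library labelled 5-month males held 2 UMIs of it.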

How the results depend on the processing

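By labelled age, 1 pair of gene and class was higher and 5 were lower. The higher count was 0 with DESeq2, without the labelled sex term and with doublets kept, and 2 with no filter on low counts. The lower count was 3 with DESeq2 and 2 without the labelled sex term. With 1 library left out the higher count ran between 0 and 3 and the lower between 0 and 3. By labelled sex, 1 pair was higher, against 2 with no filter, 0 without the labelled age term and 0 to 1 with a library left out. Between classes, 39 pairs were higher and 19 lower. The higher count stayed within 26 to 39 in every alternative run. The lower count was 10 without the library block, 11 to 14 with 1 library left out and 7 without both libraries that go against their labels. Between the 2 libraries that match their labels Ddx60 in lactotrope-like nuclei turned to a log2 ratio of 0.17. With plain totals in place of TMM the median over all genes by labelled age in lactotrope-like nuclei moved to -0.21, the 4 genes stayed lower, and Eif2ak2 (edgeR adjusted p 0.0221) and Ifit3 (0.0421) passed as lower too. The cause of these changes was not tested. Nuclei with at least 3 of the genes made up 9.41%, 5.00%, 8.41% and 4.53% of all nuclei in the libraries labelled 22-month females, 22-month males, 5-month females and 5-month males. Thinned to 1500 UMIs the shares were 1.05%, 0.881%, 0.839% and 0.577%, and the endothelial-like shares labelled 22-month males and 5-month females were 10.2% and 5.63%. No paired analysis was possible because, for labelled age and sex, each group has 1 library and no number pairs animals; the comparison of classes had the library as its block. Depth limits the smaller classes most, where single genes rest on few UMIs.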

Other observations

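Some nuclei were in none of the classes compared, and entered the class comparisons only among all other nuclei. An unnamed cluster of 1192 nuclei, led by Spon1, Arhgap6 and Gal, came to 70.6% from the library labelled 22-month females and to 28.6% from that labelled 22-month males, and the 9 genes summed to 330.1 CPM in it. Somatotrope markers led in it, at 1.25 on the log2 scale over the median cluster, against 0.41 for thyrotrope markers. At Leiden resolution 2 a cluster of 1410 nuclei led by the same genes was named somatotrope-like. The somatotrope-like values by labelled age and sex leave the unnamed cluster of 1192 nuclei out. Another unnamed cluster of 505 nuclei came to 54.5% from the library labelled 22-month females and to 44.8% from that labelled 22-month males. Lactotrope markers led in it, at 1.73 against 1.06 for thyrotrope markers, and the 9 genes summed to 161 CPM. The lactotrope-like values by labelled age and sex leave this cluster out. The T, NK or B lymphocyte-like cluster of 40 nuclei held 45 UMIs of the 9 genes, a sum of 278 CPM.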
